A study of Mus musculus with 8 samples.

Results

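The genes described here encode the constitutive proteasome, its assembly chaperones and its activators, in 8 subcutaneous tumors of the C26 colon carcinoma. They were chosen by symbol, as every gene of the deposited table whose name begins with Psma to Psmg followed by a digit, without the 3 immunoproteasome subunits and without genes named as pseudogenes. This gave 47 of the 27179 genes in the table. The tumors grew from cxC26 cells, a cachexia-inducing C26 line, in syngeneic male CD2F1 mice aged 13 to 18 weeks. The study's general rule was to euthanize a mouse once it had lost over 15% of its weight. The 4 cxC26 scr tumors carried a scrambled guide RNA with Cas9, and the 4 cxC26 IL-6 KO s1 tumors came from s1, a single subclone picked from cells edited at Il6 with Cas9, so that a difference between the groups may belong to the clone as well as to the loss of Il6. In the study's CD2F1 mice that were followed to cachexia, more cells of s1 than of scr were injected and the s1 tumors reached cachexia later. The RNA methods do not state the cell number, the day or the weight loss of the host for these 8 tumors. If the same plan was used, cell number and tumor age cannot be told apart from the group. Host cells in these tumors kept an intact Il6 gene. The comparison asks which proteasome genes differ between tumors grown with and without IL-6 made by the cancer cells.

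The proteasome degrades proteins tagged with ubiquitin. Its 20S core is a barrel of alpha rings, which gate the entry, and beta rings, which hold the catalytic sites, and the 19S cap binds, unfolds and feeds in substrates through a ring of ATPases. Other activators can take the place of the cap: PA28alpha and PA28beta (Psme1 and Psme2) form a ring that is induced by interferon gamma together with the immunoproteasome subunits and favours peptides for antigen presentation, PA28gamma (Psme3) is nuclear, and PA200 (Psme4) is a large single-chain nuclear activator.

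The largest difference among the 45 tested genes was that of an activator. Psme1 was higher and Psme4 lower in tumors of cxC26 IL-6 KO s1. Psme3 (lower) had a limma adjusted p of 0.0508, just above the threshold of 0.05. Psme2 (higher) did not pass it either (0.0736), and its groups overlapped. Because the activators had the widest range of differences of any role, the 250 bases upstream of their RefSeq start are printed (GRCm38.p6, 5′ to 3′ on the strand of the gene, in lower case, with capitals marking a match to any motif searched). They lie at chr14:55578244-55578493 on the plus strand for Psme1, chr14:55591102-55591351 on the minus strand for Psme2 (the first of 2 listed starts), chr11:101315963-101316212 on the plus strand for Psme3 and chr11:30771525-30771774 on the plus strand for Psme4.
Psme1: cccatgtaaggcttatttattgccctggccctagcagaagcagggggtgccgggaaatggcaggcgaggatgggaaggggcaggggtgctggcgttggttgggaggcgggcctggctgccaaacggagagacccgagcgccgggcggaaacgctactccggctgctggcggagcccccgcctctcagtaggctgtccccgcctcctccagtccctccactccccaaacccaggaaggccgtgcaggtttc
Psme2: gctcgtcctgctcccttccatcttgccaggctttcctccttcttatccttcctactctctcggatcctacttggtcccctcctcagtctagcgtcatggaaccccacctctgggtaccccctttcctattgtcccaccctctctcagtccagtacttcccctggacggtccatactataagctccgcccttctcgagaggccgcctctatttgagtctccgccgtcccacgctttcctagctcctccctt
Psme3: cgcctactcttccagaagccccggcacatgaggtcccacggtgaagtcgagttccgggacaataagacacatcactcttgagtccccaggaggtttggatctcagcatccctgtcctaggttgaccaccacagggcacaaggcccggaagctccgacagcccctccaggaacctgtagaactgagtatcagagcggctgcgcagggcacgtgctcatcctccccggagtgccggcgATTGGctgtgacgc
Psme4: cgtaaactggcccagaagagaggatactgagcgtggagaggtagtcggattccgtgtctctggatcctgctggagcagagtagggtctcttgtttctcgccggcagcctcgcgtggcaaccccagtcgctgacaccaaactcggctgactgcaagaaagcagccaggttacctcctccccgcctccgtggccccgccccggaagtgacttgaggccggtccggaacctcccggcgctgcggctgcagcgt

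The motifs searched on both strands were TGACNNNGC (the core of the antioxidant response element, bound by NRF1 and NRF2, which control proteasome genes), CCAAT, TTCNNNGAA (the GAS, bound by STAT factors) and the ISRE core, bound by interferon regulatory factors (GAAA, any 2 bases, GAAA). In the 250 upstream bases of the 4 activators the only match was 1 CCAAT on the reverse strand of Psme3, from 14 to 10 bases before the start. Over the whole 300-base window, which runs 50 bases past the start, Psme1 also held an ISRE core, GAAAGCGAAA on the reverse strand at bases 10 to 19 after the start, and Psme4 an antioxidant response element core, TGACGCTGC on the reverse strand across the start. Promoters were listed for 39 of the 47 genes, and not for Psma8, Psmb1, Psmb2, Psmb7, Psmc3, Psmd3, Psmd7 and Psmg2. In the 300-base window an ISRE core was found in 5 of these 39 genes (Psmb3, Psmd4, Psmd9, Psme1 and Psmg4), in 5 of their 43 listed promoters (11.6%), against 3.44% of all 32851 promoters. In the 250 upstream bases it was found in 3 of the 43 (6.98%), against 2.98%. Of the 5 genes with a match in the 300-base window, Psmb3, Psmd4, Psmd9 and Psmg4 were not called in either direction. The antioxidant response element core was found in 6 of the 43 promoters over the 300-base window (13.95%, against 12.4% of all promoters), the CCAAT box in 15 (34.9%, against 37.4%) and the GAS in 2 (4.65%, against 8.30%). A match describes the letters in the window and is not a measured site.

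Levels are log2 CPM, the log2 of read counts scaled to library size, and differences are cxC26 IL-6 KO s1 minus cxC26 scr on the log2 scale, tested with limma across all genes that reached 1 CPM in at least 4 tumors. Of the 47 genes, 45 passed this filter, and 3 were called higher and 6 lower at an adjusted p under 0.05, or 20% in all. Over all 13262 tested genes, 39.8% were called, 19.1% higher and 20.7% lower. The levels of the groups did not overlap for 11 of the 45 genes, 3 above and 8 below, against 37.1% of all tested genes. The median difference was 0.04 over the 45 genes and -0.0029 over all tested genes, and the median size of the difference without its sign was 0.17 against 0.30. The proteasome genes were also expressed at a higher level than most, with a median log2 CPM of 7.11 against 4.93, and varied less between tumors of a group, with a median SD of 0.12 against 0.17 in cxC26 scr and of 0.11 against 0.18 in cxC26 IL-6 KO s1.

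**Figure D1:**
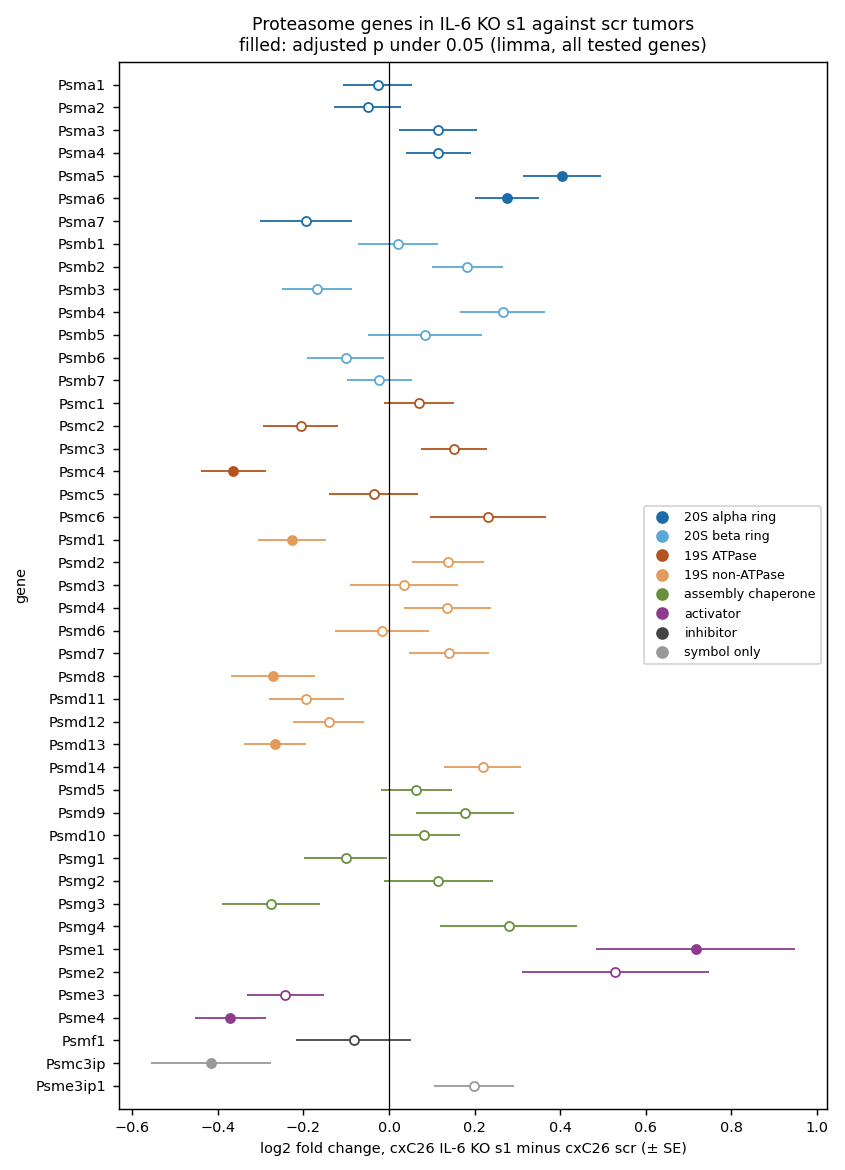
Log2 fold change (cxC26 IL-6 KO s1 minus cxC26 scr, horizontal axis, bars are ± SE) of the 45 tested genes, by role. Filled points are the 9 genes with an adjusted p under 0.05: Psme1, Psma5 and Psma6 to the right of 0, and Psmc3ip, Psme4, Psmc4, Psmd8, Psmd13 and Psmd1 to the left.

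The sequenced depth was even, with 14158989 to 17048062 reads on genes per tumor. Il6, the edited gene, stood at a log2 CPM of 4.33 to 4.83 in cxC26 scr and 1.99 to 2.46 in cxC26 IL-6 KO s1 (difference -2.45 ± 0.16 SE, adjusted p = 1.76e-06). Tumors of cxC26 IL-6 KO s1 also held more RNA of leukocyte markers, and in bulk tumor RNA fewer cells of a type and less RNA per cell cannot be told apart. The summed CPM of 16 interferon response genes was 133 to 230 in cxC26 scr and 285 to 1516 in cxC26 IL-6 KO s1, where replicate 1 held the highest value and the other tumors reached 409. Of the markers of the labelled carcinoma, the 8 epithelial genes summed to 1079 to 1288 CPM in cxC26 scr and 1325 to 1450 in cxC26 IL-6 KO s1, although Krt19 and Vil1 had at most 3 reads in every tumor and 3 of the 8 passed the filter.

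Psme1 (chromosome 14, 55578494 to 55581527, mm10) encodes PA28alpha, which with PA28beta forms the interferon-inducible activator ring. Its log2 CPM was 5.995, 6.13, 5.84 and 5.73 in cxC26 scr replicates 1 to 4 and 7.37, 6.88, 6.17 and 6.14 in cxC26 IL-6 KO s1 replicates 1 to 4. Replicates 1 and 2 of cxC26 IL-6 KO s1 stood well above all others, and replicates 3 and 4 were barely above the highest cxC26 scr tumor, so the groups did not overlap. The difference was 0.72 ± 0.23 (SE; 95% confidence interval 0.21 to 1.22), or a 1.64-fold higher level (adjusted p = 0.0292). The call was lost without cxC26 IL-6 KO s1 replicate 2 (0.64, adjusted p = 0.0726) and without cxC26 scr replicate 1 (0.74, adjusted p = 0.0506), replicate 3 (0.69, adjusted p = 0.0702) or replicate 4 (0.65, adjusted p = 0.0786). It was kept without cxC26 IL-6 KO s1 replicate 1, the tumor with the most interferon response RNA, although the difference was then 0.47. The annotation places Emc9 over part of Psme1, and the strand setting of the counting is not given in the sources used here.

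Psme2 (chromosome 14, 55587440 to 55591101) encodes PA28beta, the partner of Psme1. Its log2 CPM was 5.89, 6.11, 6.12 and 5.95 in cxC26 scr and 7.31, 6.64, 6.11 and 6.13 in cxC26 IL-6 KO s1. As for Psme1, replicates 1 and 2 were the high ones, but replicate 3 lay within the range of cxC26 scr. The difference of 0.53 ± 0.22 (SE) did not pass the test (adjusted p = 0.0736), and it was 0.27 (adjusted p = 0.122) without cxC26 IL-6 KO s1 replicate 1, the highest tumor. It passed only where replicate 3 (0.68, adjusted p = 0.0344) or replicate 4 (0.67, adjusted p = 0.0345) of cxC26 IL-6 KO s1 was left out, and under quantile normalization (0.58, adjusted p = 0.0469).

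The immunoproteasome subunits, which replace the catalytic beta subunits after exposure to interferon, were higher as well. Psmb8 had a log2 CPM of 4.75 to 4.996 in cxC26 scr and of 7.57, 5.68, 5.68 and 5.70 in cxC26 IL-6 KO s1 replicates 1 to 4. All 3 were called higher, Psmb8 by 1.33 ± 0.35 (SE; adjusted p = 0.0104), Psmb9 by 2.30 ± 0.44 (adjusted p = 0.00166) and Psmb10 by 0.81 ± 0.24 (adjusted p = 0.0203). Replicate 1 of cxC26 IL-6 KO s1 was the highest tumor for these subunits as for Psme1 and Psme2. In replicate 2 the order differed, since Psme1 and Psme2 stood above replicates 3 and 4 there while Psmb8 did not. This was not particular to Psme1 and Psme2, since the other tested members on chromosome 14 also stood higher in replicate 2 than in replicates 3 and 4. These were Psmb5 (6.66 against 6.12 and 5.99), Psmc6 (7.35 against 6.78 and 6.75) and Psmd6 (7.13 against 6.75 and 6.79). The mean log2 CPM of the 16 interferon response genes was 3.30, 2.70, 2.14 and 2.31 in cxC26 scr and 5.90, 3.63, 4.13 and 4.39 in cxC26 IL-6 KO s1. The part of leukocytes and of the interferon response in the Psme1 and Psme2 values was not tested.

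**Figure D2:**
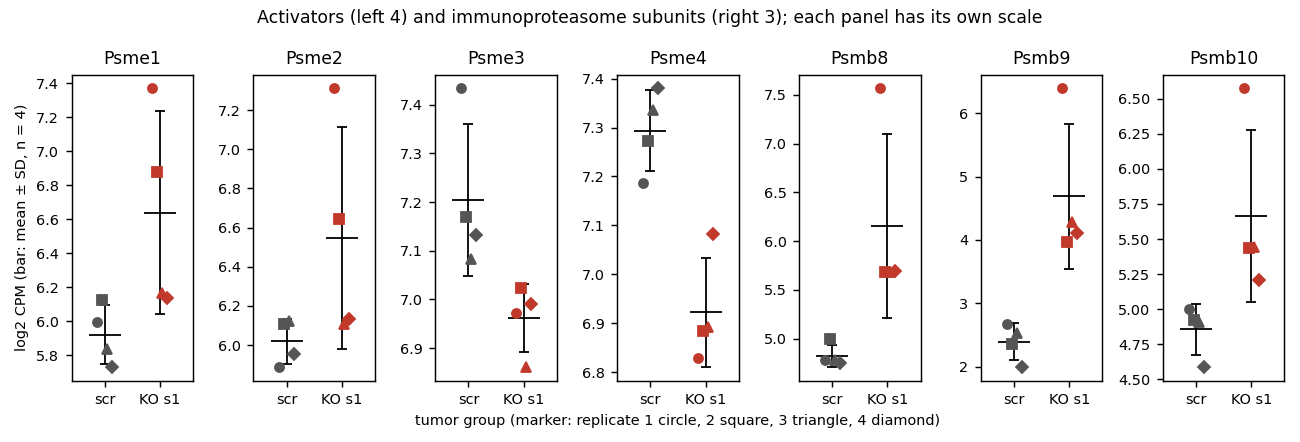
Log2 CPM (vertical axes, each panel with its own scale) of Psme1, Psme2, Psme3, Psme4 and the immunoproteasome subunits Psmb8, Psmb9 and Psmb10 in each tumor, with markers for the replicate numbers and bars for the mean ± SD (n = 4). Replicate 1 of cxC26 IL-6 KO s1 (circle) is the highest point for Psme1, Psme2 and the 3 immunoproteasome subunits, whereas all cxC26 IL-6 KO s1 points of Psme3 and Psme4 lie below those of cxC26 scr.

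Psme4 (chromosome 11, 30771775 to 30881150) encodes PA200, the large nuclear activator. Its log2 CPM was 7.19, 7.27, 7.34 and 7.38 in cxC26 scr and 6.83, 6.88, 6.89 and 7.08 in cxC26 IL-6 KO s1. Every cxC26 IL-6 KO s1 tumor was below every cxC26 scr tumor, and replicate 4 was the closest. The level fell by 22.7%, with a log2 difference of -0.37 ± 0.08 (SE; adjusted p = 0.0044), and the call was kept in all 17 alternative analyses, with differences from -0.42 to -0.26.

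Psme3 (chromosome 11, 101316213 to 101323537) encodes PA28gamma, the nuclear relative of PA28alpha and PA28beta. Its log2 CPM was 7.43, 7.17, 7.08 and 7.13 in cxC26 scr and 6.97, 7.02, 6.86 and 6.99 in cxC26 IL-6 KO s1. The groups did not overlap, but the difference of -0.24 ± 0.09 (SE) had an adjusted p of 0.0508. With the median change of the neighbouring genes removed, the difference of Psme3 was -0.10 (adjusted p = 0.453). The inhibitor Psmf1 (PI31, which binds the core) had a difference of -0.08 ± 0.13 (SE; adjusted p = 0.652), with overlapping groups.

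Among the 7 tested alpha ring genes, 2 were called higher (28.6%, against 19.1% of all tested genes) and none lower (against 20.7%). Among the 7 tested beta ring genes none was called, against 39.8% of all tested genes. In limma, 2 of these 7 (Psmb2 and Psmb4) had an unadjusted p under 0.05, as had 6415 of all 13262 tested genes. Psma5 (chromosome 3, 108256926 to 108279952), an alpha subunit of the core, had a log2 CPM of 7.02, 7.29, 7.10 and 7.13 in cxC26 scr and 7.55, 7.72, 7.40 and 7.50 in cxC26 IL-6 KO s1. Every tumor of cxC26 IL-6 KO s1 was above every tumor of cxC26 scr. The difference was 0.40 ± 0.09 (SE; 1.32-fold, adjusted p = 0.00468), and it stayed called in all 17 alternatives, between 0.31 and 0.46.

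Psma6 (chromosome 12, 55384222 to 55418459), another alpha subunit, had a log2 CPM of 7.01, 7.14, 7.04 and 7.02 in cxC26 scr and 7.34, 7.41, 7.33 and 7.22 in cxC26 IL-6 KO s1. The groups were again apart, with replicate 4 of cxC26 IL-6 KO s1 the closest to cxC26 scr. The difference was 0.28 ± 0.08 (SE; 1.21-fold, adjusted p = 0.0128). The other 5 alpha genes had differences from -0.19 (Psma7, adjusted p = 0.171) to 0.12 (Psma4, adjusted p = 0.251) and overlapping groups.

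The catalytic beta subunits are Psmb5, Psmb6 and Psmb7, which the immunoproteasome subunits can replace. Psmb5 differed by 0.08 ± 0.13 (SE), Psmb6 by -0.10 ± 0.09 and Psmb7 by -0.02 ± 0.08, with adjusted p-values of 0.647, 0.398 and 0.833. The 95% confidence intervals of these differences ran from -0.21 to 0.37, from -0.30 to 0.10 and from -0.19 to 0.14. Psmb4, a structural beta subunit, had the largest value of the ring, 0.27 ± 0.10 (SE; adjusted p = 0.0525), with cxC26 IL-6 KO s1 tumors at a log2 CPM of 8.28, 8.46, 8.20 and 7.98 against 7.93 to 8.03 in cxC26 scr. Psmb4 was called without cxC26 IL-6 KO s1 replicate 4 (0.35, adjusted p = 0.0118), the lowest tumor of its group for all 7 beta genes. With all tumors kept, it was called under quantile normalization (0.32, adjusted p = 0.0158) and with the replicate block (0.27, adjusted p = 0.0423). It also passed narrowly with the tumors re-centred on equal medians (0.27, adjusted p = 0.0494). With the median change of the neighbouring genes on chromosome 3 removed, the difference of Psmb4 was 0.04 (adjusted p = 0.823).

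In the 19S cap, 4 of 17 genes (23.5%) were called lower, close to the 20.7% of all tested genes, and none higher. None of the 4 kept its call once the median change of the neighbouring genes was removed. Psmc4 (chromosome 7, 28041702 to 28050092) is 1 of the 6 ATPases that unfold substrates. Its log2 CPM was 7.33, 7.35, 7.17 and 7.23 in cxC26 scr and 6.94, 6.92, 6.94 and 6.82 in cxC26 IL-6 KO s1. The groups were far apart relative to their spread, with replicates 1 to 3 of cxC26 IL-6 KO s1 nearly equal and replicate 4 lower. The level fell by 22.3%, with a log2 difference of -0.36 ± 0.08 (SE; adjusted p = 0.00298).

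Psmc2 was the only other ATPase whose groups did not overlap, at 7.06, 7.35, 7.02 and 7.04 in cxC26 scr and 6.89, 6.92, 6.92 and 6.91 in cxC26 IL-6 KO s1 (difference -0.21 ± 0.09 SE, adjusted p = 0.0802). The remaining 4, Psmc1, Psmc3, Psmc5 and Psmc6, had differences from -0.04 to 0.23, none of which passed the test. Psmc6 differed between tumors more than between groups, with cxC26 IL-6 KO s1 replicates 1 and 2 at 7.25 and 7.35 and replicates 3 and 4 at 6.78 and 6.75, against 6.68 to 6.93 in cxC26 scr.

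Of the 11 non-ATPase cap genes, Psmd13, Psmd8 and Psmd1 were called lower. Psmd13 (chromosome 7, 140882394 to 140898642), a subunit of the lid, stood at 7.13, 7.23, 7.12 and 7.03 in cxC26 scr and at 6.88, 6.88, 6.84 and 6.85 in cxC26 IL-6 KO s1, so that replicates of cxC26 IL-6 KO s1 were close together below the others. It fell by 0.27 ± 0.07 (SE) on the log2 scale (adjusted p = 0.0132). Psmd8 (chromosome 7, 29174187 to 29180673), also of the lid, stood at 7.62, 7.62, 7.36 and 7.32 against 7.15, 7.30, 7.31 and 7.08, and the groups nearly touched. It fell by 0.27 ± 0.10 (adjusted p = 0.0442). The Psmd8 call was lost without cxC26 scr replicate 1 (adjusted p = 0.0952) or 2 (0.12), and without cxC26 IL-6 KO s1 replicate 1 (adjusted p = 0.0867), 3 (0.0536) or 4 (0.107).

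Psmd1 (chromosome 1, 86064619 to 86139295), the large scaffold subunit of the base, stood at 8.10, 8.26, 8.06 and 8.11 in cxC26 scr and at 7.96, 7.99, 7.81 and 7.86 in cxC26 IL-6 KO s1, without overlap. It fell by 0.23 ± 0.08 (SE) on the log2 scale (adjusted p = 0.0417), and the call was lost without cxC26 scr replicate 2 (adjusted p = 0.115), 3 (0.0586) or 4 (0.0786) and without cxC26 IL-6 KO s1 replicate 1 (adjusted p = 0.052), 3 (0.123) or 4 (0.0841). Htr2b is annotated over part of this gene. The other 8 non-ATPase genes ranged from -0.19 (Psmd11) to 0.22 (Psmd14, the deubiquitinase of the lid, adjusted p = 0.0734). The ubiquitin receptor Psmd4 differed by 0.14 ± 0.10 (SE; adjusted p = 0.308) and the scaffold Psmd2 by 0.14 ± 0.08 (adjusted p = 0.209).

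None of the 7 tested assembly chaperones (Psmd5, Psmd9, Psmd10 and Psmg1 to Psmg4) was called, against 39.8% of all tested genes. For 1 of them, Psmg3, the unadjusted p was under 0.05. These proteins guide the building of the cap and of the alpha rings and are not part of the finished particle. Psmg3 had a log2 CPM of 4.22 to 4.63 in cxC26 scr and 4.08 to 4.24 in cxC26 IL-6 KO s1 (difference -0.28 ± 0.11 SE, adjusted p = 0.0743), and Psmg4 had 3.29 to 3.57 and 3.48 to 4.12 (0.28 ± 0.16, adjusted p = 0.187). The group levels of both genes overlapped.

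Of the 47 genes, 2 are not proteasome subunits and match only by symbol. Psmc3ip, which acts in meiotic recombination, stood at 3.94, 4.27, 4.46 and 3.92 in cxC26 scr and 3.63, 3.75, 3.78 and 3.78 in cxC26 IL-6 KO s1 (difference -0.42 ± 0.14 SE, adjusted p = 0.0343). Its groups did not overlap, but the call was lost without cxC26 scr replicate 2 (adjusted p = 0.0908) or 3 (0.11) and without any single tumor of cxC26 IL-6 KO s1 (adjusted p = 0.0528 to 0.066). Psme3ip1 differed by 0.20 ± 0.09 (adjusted p = 0.114). Without these, 8 of 43 tested genes were called, 3 higher and 5 lower.

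The genes that did not reach the filter were Psmb11, the thymic beta subunit, with 3 reads over all tumors, and Psma8, the testis alpha subunit. Psma8 had 1, 1, 0 and 2 reads in cxC26 scr and 6, 4, 8 and 6 in cxC26 IL-6 KO s1. Its groups did not overlap, and with every gene tested its adjusted p was 0.0208, but each cxC26 scr tumor had fewer than 3 reads and no fold change is given.

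**Figure D3:**
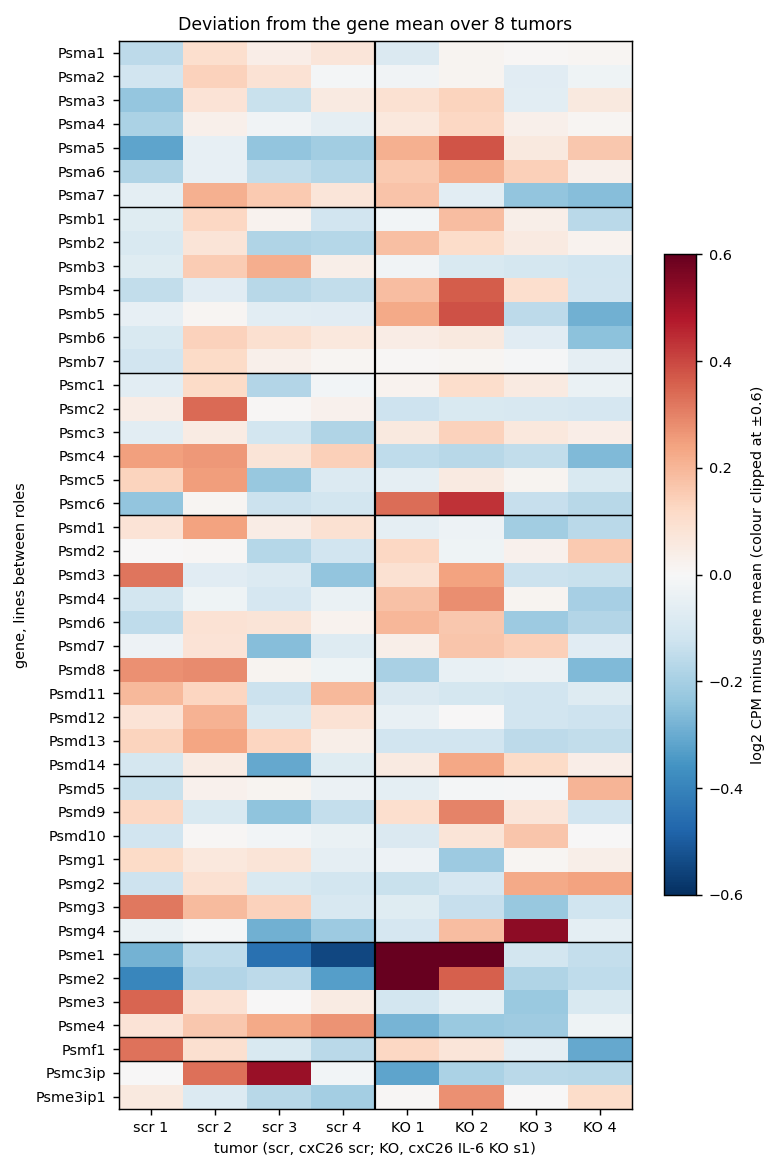
Log2 CPM of each of the 45 tested genes in each of the 8 tumors minus the mean of the gene (colour, clipped at 0.6 in either direction), with genes in rows by role and tumors in columns. Tumors of a group differ within some roles: cxC26 scr replicate 1 is the lowest of its group in all 7 alpha genes. Replicates 1 and 2 of cxC26 IL-6 KO s1 are red, and above replicates 3 and 4, for Psme1, Psme2, Psmc6, Psmb5 and Psmd6. These are the 5 tested members on chromosome 14.

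Subunits of a role often shared their highest and lowest tumor within a group. In cxC26 scr, replicate 1 was the lowest tumor for 7 of 7 alpha genes and replicate 2 the highest for 7 of 7, and replicate 2 was also the highest for 15 of 17 cap genes. In cxC26 IL-6 KO s1, replicate 2 was the highest for 11 of 14 core and 11 of 17 cap genes, and replicate 4 the lowest for 10 and 11 of them. How often these tumors were the highest or lowest over all tested genes was not counted, so the pattern may not be particular to proteasome genes. The mean log2 CPM of the 14 core genes was 7.31 ± 0.09 (SD, n = 4) in cxC26 scr and 7.37 ± 0.09 in cxC26 IL-6 KO s1, and that of the 17 cap genes was 7.39 ± 0.09 and 7.35 ± 0.08. The core minus the cap was -0.21, -0.09, 0.03 and -0.06 in cxC26 scr and 0.04, 0.03, 0.0016 and 0.0025 in cxC26 IL-6 KO s1. Of the cxC26 scr tumors, replicate 3 lay within the range of cxC26 IL-6 KO s1 and the others below it, so that the spread was wider in cxC26 scr (SD 0.10) than in cxC26 IL-6 KO s1 (SD 0.02). Psme1 minus the mean of the core was -1.38 ± 0.16 (SD) in cxC26 scr and -0.73 ± 0.52 in cxC26 IL-6 KO s1.

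Per length of the principal transcript in cxC26 scr, the levels of alpha, beta, ATPase and other cap genes overlapped. All assembly chaperones lay below every alpha, beta and ATPase gene, and all activators below every beta gene. In cxC26 scr, alpha genes ranged from 48.3 (Psma3) to 301 CPM per kb (Psma7), beta genes from 83.7 (Psmb5) to 218 (Psmb3), ATPases from 49.97 (Psmc6) to 119 (Psmc3) and the other cap genes from 39.9 (Psmd11) to 155 (Psmd4). Assembly chaperones ranged from 12.5 (Psmd9) to 41.1 (Psmd10), and the inhibitor Psmf1 stood at 7.91, the lowest of the 45 tested genes. Among the activators, Psme2 stood at 67.6 ± 5.36 (SD), Psme3 at 55.6 ± 6.30, Psme1 at 54.9 ± 6.62 and Psme4 at 24.2 ± 1.39 CPM per kb in cxC26 scr. Psme3 and Psme1 did not differ there beyond their spread. In cxC26 IL-6 KO s1 the order had Psme2 at 103 ± 43.7 and Psme1 at 95.7 ± 40.5, then Psme3 at 46.8 ± 2.23 and Psme4 at 18.7 ± 1.48. The principal transcripts of Psma2 and Psma3 are listed with 2.91 and 2.85 kb, which sets their low values per kb.

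**Figure D4:**
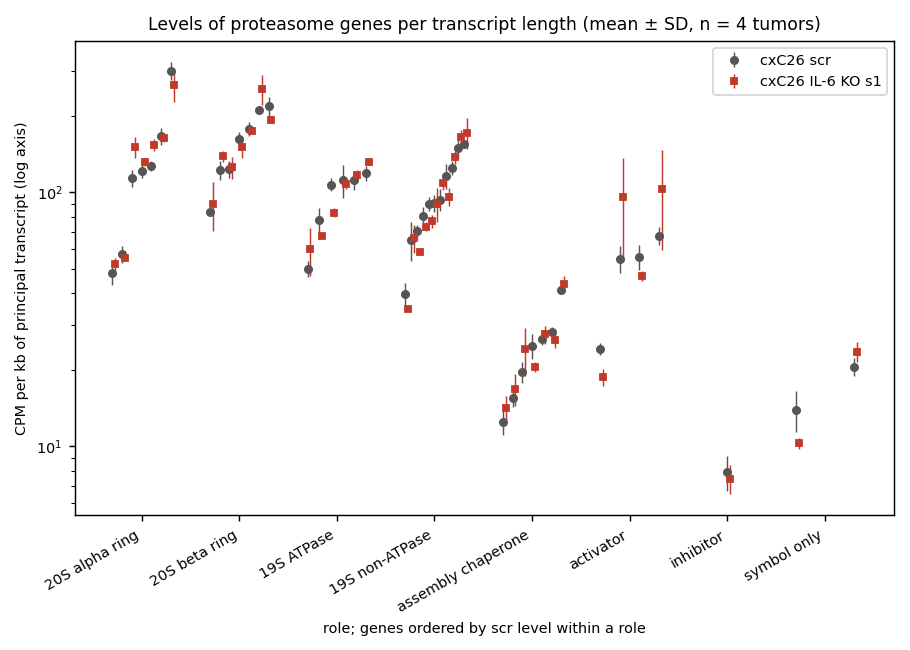
CPM per kb of the principal transcript (log axis, mean ± SD, n = 4 tumors) of the 45 tested genes by role, grey for cxC26 scr and red for cxC26 IL-6 KO s1. Core genes reach 301 CPM per kb (Psma7) in cxC26 scr, assembly chaperones lie between 12.5 and 41.1, and the widest bars are those of Psme1 and Psme2 in cxC26 IL-6 KO s1.

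The differences of the members went with those of their genomic neighbours. For each member the median difference of the other tested genes in the same 10 Mb window of its chromosome was taken, and these medians ran from -0.37 to 0.25. The sign of the member was that of its window for 34 of 45 members (75.6%), against 63.8% of 12950 other tested genes, and for all 9 called members, against 72.0% of the other called genes. Pearson's r between the members and their windows was 0.71 and Spearman's rho 0.74 (n = 45 genes, which share the 8 libraries and in part the windows), against 0.25 and 0.36 over the other tested genes. Tested genes at large had a lower level and varied more between tumors than the members. These shares and correlations were not set against genes of like level and spread. Psmc4 and Psmd8 lie in a window of chromosome 7 with a median of -0.34, Psmd13 in one of -0.25 and Psmd1 in a window of chromosome 1 with -0.37. Minus the window median, these 4 cap genes stood at -0.02 (Psmc4), 0.07 (Psmd8), -0.02 (Psmd13) and 0.15 (Psmd1). By contrast, Psme1 exceeded its window by 0.58, Psma5 by 0.31 and Psma6 by 0.21, and Psme4 minus its window median was -0.27.

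With the regional medians removed before the fit, 1 member was called higher (Psma5, 0.31, adjusted p = 0.0248) and 2 lower, Psme4 (-0.26, adjusted p = 0.0312) and Psmg1, which moved from -0.10 to -0.31 (adjusted p = 0.0334). The difference of Psmc4 was then -0.02 (adjusted p = 0.884), of Psmd13 -0.01, of Psmd8 0.07 and of Psmd1 0.13, and those of Psme1, 0.58 (adjusted p = 0.0819), and Psma6, 0.20 (adjusted p = 0.0612), were smaller and no longer called. On chromosome 11, which holds 9 members, 8 of them were negative and 2 called (Psme4 and Psmc3ip), at a median of -0.15 over all tested genes of the chromosome. Whether copy number differs between the s1 clone and the cxC26 scr cells was not tested.

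**Figure D5:**
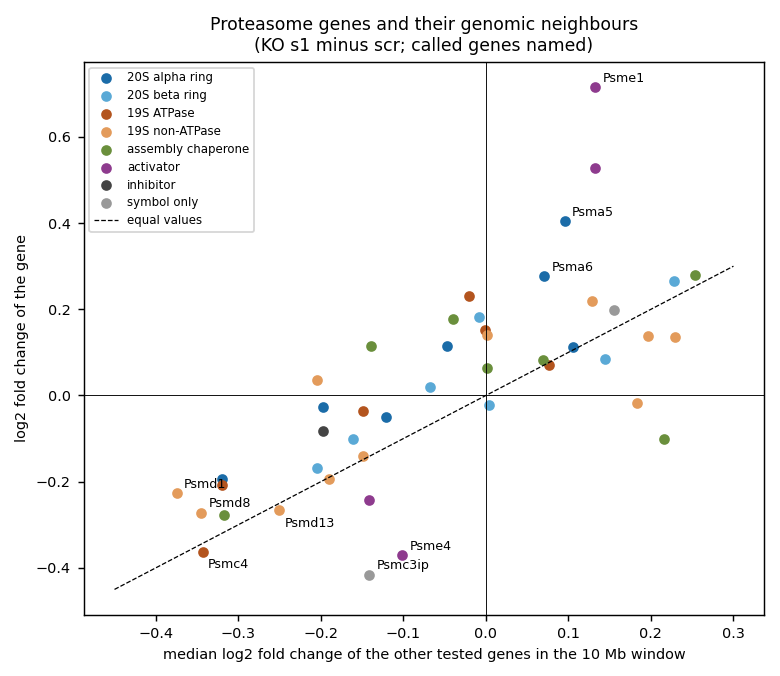
Log2 fold change of each of the 45 tested genes (vertical axis) against the median log2 fold change of the other tested genes in its 10 Mb window (horizontal axis), coloured by role, with the 9 called genes named and a dashed line where both are equal. Psmc4 and Psmd13 lie near the line, Psmd1 and Psmd8 above it, and Psme1 and Psma5 stand 0.58 and 0.31 above it.

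Of the other genes of the pathway that were listed, 29 passed the filter. Of these, 2 were called higher and 6 lower, or 27.6% against 39.8% of all tested genes, with a median difference of -0.06. Among cap components and enzymes bound to it, the ubiquitin receptor Adrm1 (-0.32 ± 0.11 SE, adjusted p = 0.0421), the deubiquitinase Uchl5, which Adrm1 recruits (-0.31 ± 0.11, adjusted p = 0.049), and the ubiquitin ligase Ube3c (-0.47 ± 0.09, adjusted p = 0.00187) were lower, and 4 of 7 were not called. Pomp, the chaperone that completes the core, fell by 0.35 ± 0.08 (adjusted p = 0.00633). Uba6, an E1 enzyme that activates ubiquitin, fell by 0.71 ± 0.13 (adjusted p = 0.00149), while Uba1, the main E1, differed by -0.11 ± 0.13 (adjusted p = 0.549). The windows of some of these genes were low too, with a median of -0.47 for Pomp, which stood 0.12 above it, of -0.31 for Adrm1, of -0.30 for Ube3c and of -0.39 for Uba6 (11 other genes). The window of Uchl5 was at 0.34 (8 other genes).

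Nfe2l1 and Nfe2l2 encode NRF1 and NRF2, the factors that drive proteasome genes. They differed by -0.09 ± 0.10 (SE; adjusted p = 0.495) and -0.09 ± 0.08 (adjusted p = 0.353). Ngly1, which removes glycans from NRF1 in its processing, was higher by 0.43 ± 0.14 (adjusted p = 0.0294), and the protease Ddi2, which cleaves NRF1, fell by 0.32 ± 0.11 (adjusted p = 0.0439), with window medians of 0.11 and -0.0062. Of the 5 tested genes of the p97 segregase and its cofactors, Faf1 was called higher (0.36 ± 0.09, adjusted p = 0.0106) and Vcp, p97 itself, differed by 0.19 ± 0.10 (adjusted p = 0.137).

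Markers of other cell types moved with the groups as follows. Of the 7 pan-leukocyte markers, 6 were called higher, and their summed CPM was 400 to 449 in cxC26 scr and 517 to 832 in cxC26 IL-6 KO s1. All 9 macrophage and monocyte markers were called higher (860 to 1110 against 1728 to 2993 CPM) and 15 of 16 interferon response genes. Of these 16 interferon response genes, 1 needed tumors of cxC26 IL-6 KO s1 to pass the filter. The 10 T cell and cytotoxic lymphocyte markers summed to 1.30 to 6.43 CPM in cxC26 scr and 16.7 to 51.8 CPM in cxC26 IL-6 KO s1. Of these, 7 passed the filter, and all 7 needed tumors of cxC26 IL-6 KO s1 to do so, so their calls are not counted. Replicate 1 of cxC26 IL-6 KO s1 held the most of each of these sums. Of 7 fibroblast markers 1 was called higher and 3 lower (7784 to 10322 against 5555 to 8704 CPM), of 5 endothelial markers 1 lower (97.1 to 148 against 104 to 129 CPM), and of 8 genes of cycling cells 1 higher and 4 lower (1731 to 2043 against 1473 to 1880 CPM). Of 8 epithelial markers, 3 passed the filter and 2 of these 3 were called higher, with a median difference of 1.46 over the 3. None of 5 skeletal muscle markers (7.67 to 153 against 21.0 to 311 CPM) or 3 erythroid genes (8.45 to 35.5 against 7.63 to 44.6 CPM) was called. The part of any of these in the proteasome values was not tested.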

How the data were processed

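RNA from 8 tumors (4 cxC26 scr, 4 cxC26 IL-6 KO s1, grouped by their titles) was sequenced as paired reads. Per the study's methods, the authors mapped trimmed reads to mm10 using HISAT2 and used featureCounts for gene counts. What they deposited is log2 CPM from limma-voom, for 27179 genes. The aligner version, annotation and strand setting are not given in the sources used here (bcl2fastq 2.17 is named in the submitters' processing notes). Inverting the transformation (offsets of 0.5 reads and of 1 read in the library size) gave whole reads for 100% of values within 0.01 reads, with 14158989 to 17048062 reads per tumor, which limit low genes.

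The deposited log2 values were tested, where a gene reached 1 CPM in 4 or more tumors, with limma 3.58.1 (R 4.3.3, two-sided, variance trend, Benjamini-Hochberg over 13262 genes, 0.05) without a block. The tumors came from separate mice. Replicates differed beyond sampling noise. The script was tested on simulated data. The members and lists were chosen with earlier results of these data known, and every member was accounted for. Promoter sequences and gene positions are from RefSeq (GRCm38.p6), transcript lengths from GENCODE M21, matched by gene identifier for all 47 genes. Alternatives covered the filter, normalization, variance model, pseudocount of 1 CPM, replicate block, regional medians and leaving out each tumor.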

Additional observations from a re-analysis of the deposited data

Results flagged for a closer look

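In each group of 4 tumors, a gene was singled out where its highest or lowest tumor stood apart from the other 3 by a share of the range above Dixon's 95% critical value. Chance alone gives about 1 in 20 such groups, and 9 of 156 groups were singled out, 4 of them among the 90 of the proteasome members. Among the members, Psma1 was low in cxC26 IL-6 KO s1 replicate 1 (log2 CPM 7.55, others 7.64 to 7.65), and Psmc4 was low in cxC26 IL-6 KO s1 replicate 4 (6.82, others 6.92 to 6.94). Both Psmc2 (7.35, others 7.02 to 7.06) and Psmg2 (4.18, others 3.96 to 4.00) were high in cxC26 scr replicate 2.

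Among the genes read beside them, Psmb8 was high in cxC26 IL-6 KO s1 replicate 1 (log2 CPM 7.57, others 5.68 to 5.70), as was Psmb9 (6.39, others 3.97 to 4.28). Psmb8 was also high in cxC26 scr replicate 2 (4.996, others 4.75 to 4.78), Uchl5 was low in cxC26 scr replicate 3 (5.50, others 5.93 to 5.95), and Il6 was high in cxC26 IL-6 KO s1 replicate 3 (2.46, others 1.99 to 2.04).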

How the results depend on the processing

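Of the 9 called members, Psma5 and Psme4 kept their call in all 17 alternatives, and Psma6, Psmc4 and Psmd13 lost it with the regional medians removed only. The members called were 3 higher and 6 lower as reported, 6 higher under quantile normalization, 3 lower with no filter, and 1 higher and 2 lower with the regional medians removed. Leaving out 1 tumor gave 2 to 5 members higher (5 without cxC26 scr replicate 2 or cxC26 IL-6 KO s1 replicate 4) and 3 to 6 lower (3 without cxC26 scr replicate 2 or cxC26 IL-6 KO s1 replicate 3 or 4). With 1 tumor left out, the median difference of the members ran from -0.030 (without cxC26 IL-6 KO s1 replicate 2) to 0.066, and it was 0.076 under quantile normalization. Counts over all genes stayed within 1.5 times of those reported. With no filter the calls of Psme1, Psmd1, Psmd8 and Psmc3ip were lost, and with no variance trend those of Psme1, Psmd1 and Psmd8. Under quantile normalization Psmd1 (adjusted p = 0.0864) and Psmd8 (0.0889) lost their calls. Psmd8 also lost it with the tumors re-centred on equal medians (adjusted p = 0.0547). The cause was not tested.

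The replicate numbers did not pair the tumors (correlations of same-numbered deviations from -0.06 to 0.06), and with the replicate block 4 members were higher and 7 lower, adding Psmb4 (0.27, adjusted p = 0.0423) and Psme3 (-0.24, adjusted p = 0.0488), with a median difference of 0.04 and 2477 higher and 2688 lower over all genes.

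The sign turned for 4 uncalled members under quantile normalization (Psmc5 0.0032, Psmd6 0.026, Psmb7 0.017, Psma1 0.015). It turned for 16 members with the regional medians removed, of which Psmd1 (0.13) and Psmd8 (0.072) had been called. The uncalled ones that turned positive were Psmb6 (0.055), Psmb3 (0.032), Psmc5 (0.11), Psmd12 (0.0038), Psma2 (0.069), Psmf1 (0.11), Psma7 (0.12), Psmc2 (0.11), Psmg3 (0.031) and Psma1 (0.17), and those that turned negative were Psmc1 (-0.0053), Psmb5 (-0.054), Psmd2 (-0.029) and Psmd4 (-0.092). Leaving out 1 tumor turned the sign of 8 uncalled members, whose differences ran from -0.038 to 0.15 (Psmd3), -0.12 to 0.041 (Psmc5), -0.085 to 0.053 (Psmd6), -0.030 to 0.19 (Psmb5), -0.038 to 0.078 (Psmb1), -0.064 to 0.012 (Psmb7), -0.15 to 0.012 (Psmf1) and -0.083 to 0.0028 (Psma1).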
